A study of Mus musculus with 10 samples.

Results

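The enzymes and transporters that carry glucose carbon through glycolysis, the pentose phosphate pathway and the citrate cycle were followed in microglia, the resident macrophages of the brain, 24 h after a systemic challenge with lipopolysaccharide (LPS), a component of the outer membrane of Gram-negative bacteria. The module held 47 genes of the 40789 in the count table, picked by their biochemical role, with earlier results of these data known. They were taken in 5 steps: glucose entry with 4 genes, glycolysis with its regulators and the transcription factor gene Hif1a with 17, the pentose phosphate pathway with 7, pyruvate entry into mitochondria with 5, and the citrate cycle with 14.

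RNA was sequenced from 5 mice that received 4 mg/kg LPS by intraperitoneal injection and 5 mice that received saline, both killed after 24 h, with 1 library per mouse. All were female CX3CR1+/egfp mice on C57BL6/J, aged 2 to 3 months, so every animal in both groups carried the reporter allele at the Cx3cr1 locus and no mouse with both Cx3cr1 copies intact was included. Cells were sorted from the cortex by high GFP, and other cells that express Cx3cr1 can enter such a gate. Library totals were 12928007 to 15332121 counts in LPS mice and 11577295 to 15274421 counts in saline mice.

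Glycolysis splits glucose into pyruvate in the cytosol with a small yield of ATP, and lactate dehydrogenase turns pyruvate into lactate when glycolysis outpaces mitochondrial oxidation. The pentose phosphate pathway branches off at glucose 6-phosphate and supplies NADPH and ribose. The citrate cycle oxidises acetyl-CoA in the mitochondrial matrix and also exports citrate for fatty acid synthesis. In macrophages cultured with LPS, a shift towards glycolysis with breaks in the citrate cycle is textbook knowledge, and the factor HIF-1 is a known regulator of many glycolytic genes.

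Of the 47 genes, 46 passed the filter on low counts and were tested. In LPS mice 18 were higher and 7 were lower at an edgeR adjusted p below 0.05 (adjusted over all genes tested), and 21 were not called. Levels are given as CPM, counts scaled to the size of each library by TMM. Over all 13793 genes tested, 45.0% were called, 22.4% higher and 22.5% lower in LPS mice, so the share of lower members was under the background and the share of higher members above it. Because the list was chosen with earlier results of these data known, these shares describe it and are no test of the pathways. The median log2 fold change was 0.35 over the members and 0.00 over all genes tested. The groups did not overlap in 23 members, against 29.8% of all genes tested. In 16 members every LPS mouse was above every saline mouse, a pattern that 14.1% of all genes tested showed, and in 7 every LPS mouse was below every saline mouse, as in 15.7% of all genes tested. Changes were mostly modest: 7 called members differed by at least 2-fold, with Pgd the highest at a log2 fold change of 1.08 and Pdk1 the lowest at -1.36.

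**Figure D1:**
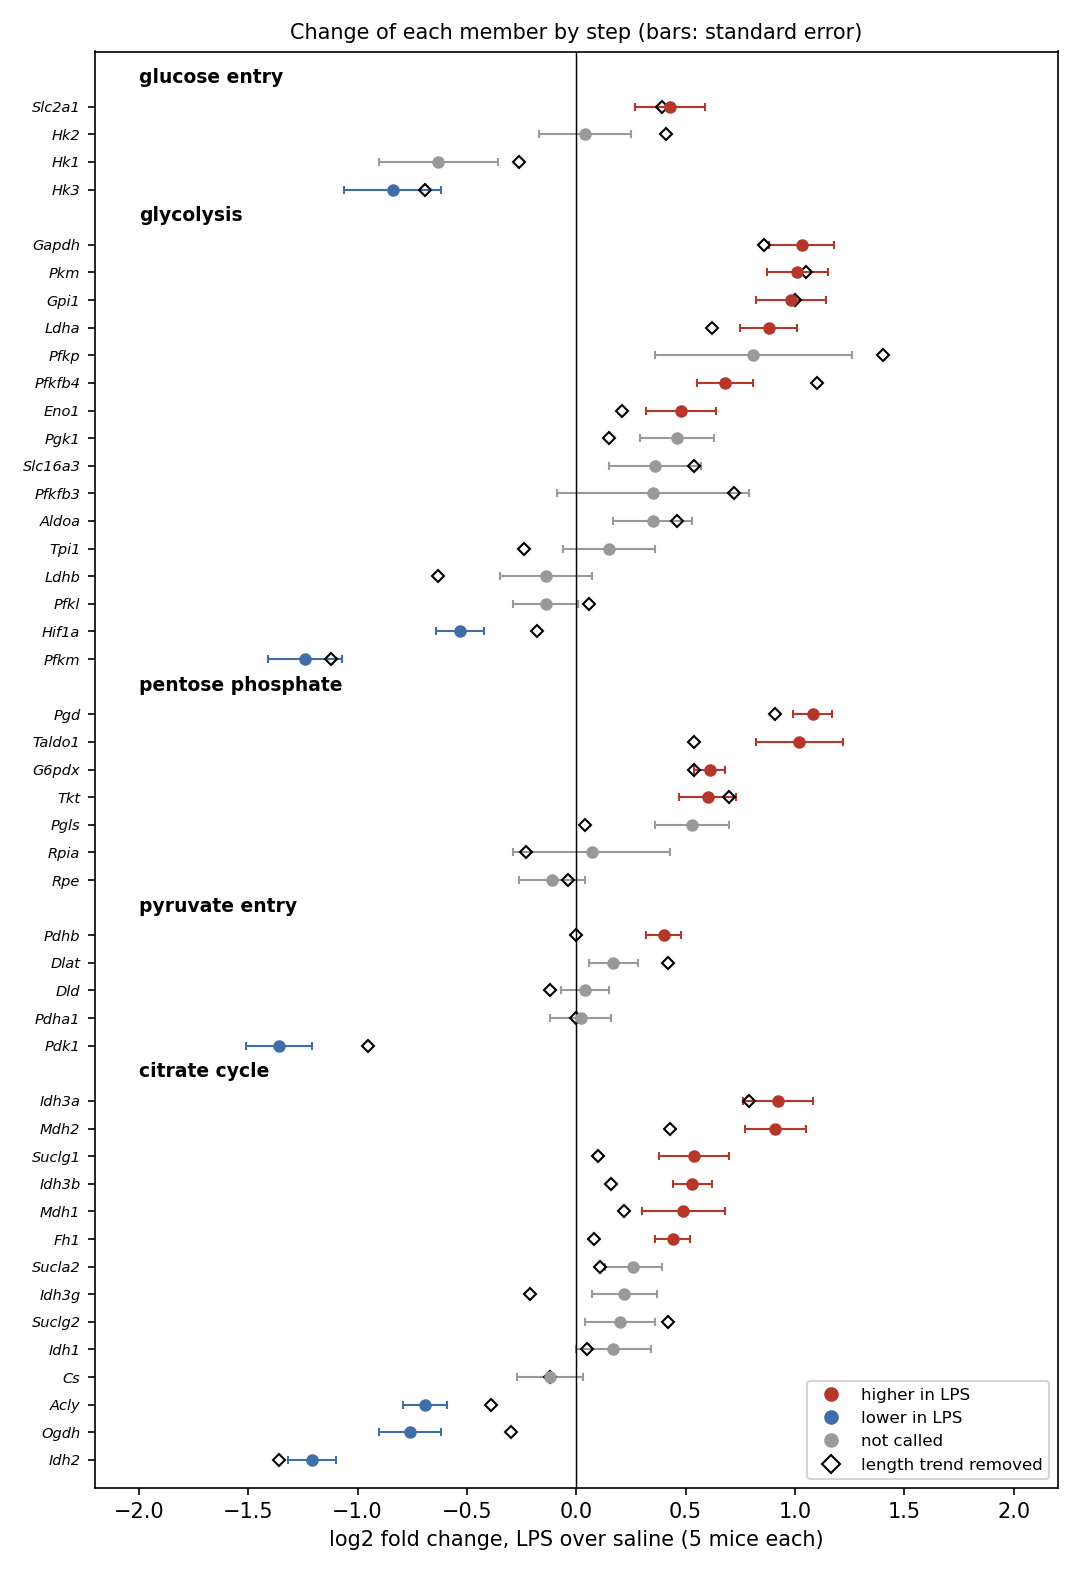
Log2 fold change of LPS over saline mice for each tested member, ordered by step. Filled circles are the edgeR estimates, coloured by call (n = 5 mice per group). Bars are the standard error of the group difference in log2 CPM, from the spread between mice. Open diamonds are the estimates after each library's trend with gene length was removed. The 4 called pentose phosphate genes lie right of 0, while Pdk1, Pfkm and Idh2 lie at -1.36, -1.24 and -1.21.

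Some properties of the whole data set bear on these values. The LPS libraries were less alike than the saline libraries: the mean correlation of a library with the others of its group, over genes, was 0.934 to 0.964 in LPS mice and 0.964 to 0.973 in saline mice, with LPS replicate 4 the lowest. Microglia markers were abundant in every library, though 6 of 8 were called lower in LPS mice, and their sum was 15790 to 28110 CPM in LPS mice and 53210 to 60650 CPM in saline mice. Of 6 tested monocyte markers 3 were higher (Fn1, F13a1 and Ms4a4c) and 2 lower (Ccr2 and Spn). Sums over the 9 listed were 78.1 to 219 CPM in LPS mice and 14.4 to 22.8 CPM in saline mice. Ms4a4c was the largest part of the sum in every LPS mouse, and Ly6c2 was under 1 CPM in every library. Ccr2 averaged 2.45 CPM in LPS mice and 10.2 CPM in saline mice, with no overlap. Of 5 tested border macrophage markers 4 were higher. The 8 listed summed to 808 to 2080 CPM in LPS mice and 614 to 893 CPM in saline mice. Most of that sum was Stab1, which overlapped, at 687 to 1842 CPM in LPS mice and 567 to 863 CPM in saline mice. Mrc1 was not called (log2 fold change -0.49, edgeR adjusted p = 0.102), and Cd163 and Lyve1 were under 1 CPM throughout. Neutrophil markers (8 genes) summed to 2.01 to 27.9 CPM in LPS mice and 0.162 to 1.12 CPM in saline mice, with Ly6g, Camp and Ltf under 1 CPM in every library. Of 2 tested endothelial markers both were lower, and the 6 listed summed to 6.50 to 12.2 CPM in LPS mice and 53.1 to 78.9 CPM in saline mice, most of it Pecam1, with Cldn5 at 0. Of 4 tested astrocyte markers 1 was lower, Slc1a3, which made up most of a sum of 137 to 346 CPM in LPS mice and 359 to 415 CPM in saline mice. The part of these cells in the results on the members was not tested, and in bulk samples fewer cells of a type and less RNA per cell cannot be told apart. Long genes were also lower in LPS mice as a class: Spearman's rho between gene length and log2 fold change was -0.48 over 13199 genes and -0.39 over the 46 members, given as a description, since genes are not independent replicates. The members had a median length of 2.64 kb against 3.13 kb over the genes tested, and those called higher had a median of 2.10 kb and those called lower 4.42 kb.

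With the length trend of each library removed, 14 members were higher and 7 lower, of which 12 and 6 had the same call before, and 38.7% of 13199 genes were called (20.8% higher, 17.8% lower). The median log2 fold change of the members was then 0.13, against 0.05 over all genes tested. What made the length trend was not tested. Where a gene named below lost or gained its call on removal, the value is given with it. Counts of genes outside the module are from the fit without removal unless stated.

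**Figure D2:**
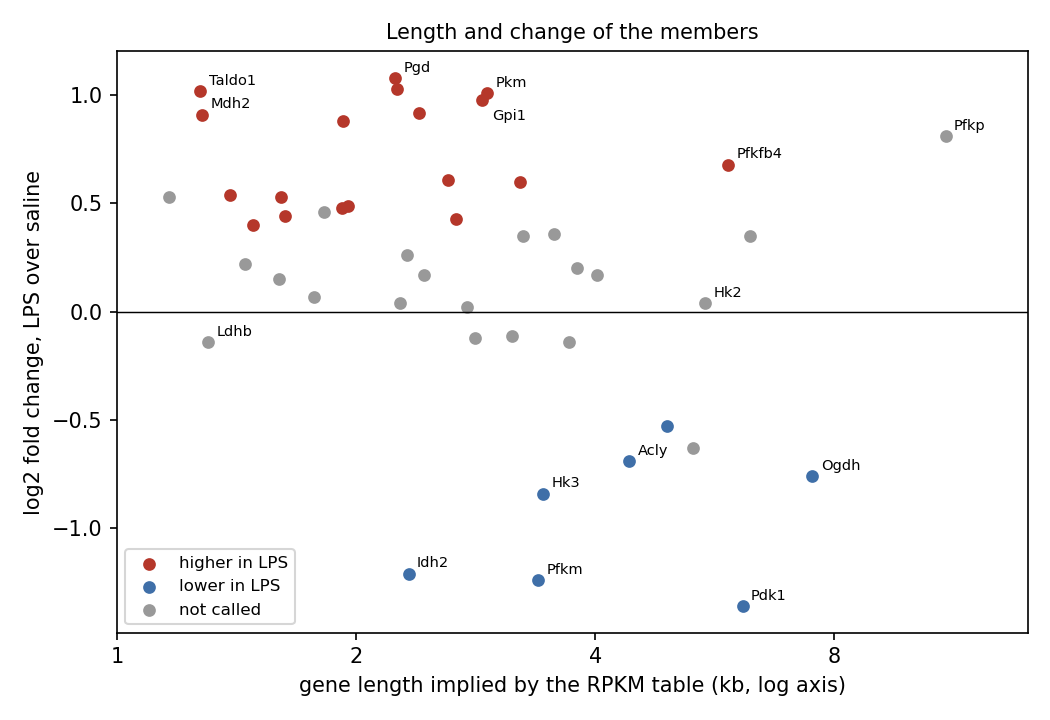
Gene length in kb (log axis), as implied by the deposited RPKM values, against the log2 fold change of LPS over saline mice for each tested member. Points are coloured by call, and the members called higher are mostly short (median 2.10 kb) while those called lower are mostly long (median 4.42 kb).

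HIF-1 binds DNA at a core of ACGTG or GCGTG, and the letters were looked for in the 250 bases before each listed RefSeq transcript start (GRCm38.p6), on both strands. They stood in 37 of 46 member genes with a listed promoter (80.4%), against 41.5% of all 27025 genes with one, tested or not. A gene was counted if any of its listed starts had a match. Counted by promoter, the letters stood in 49 of 65 member promoters (75.4%), against 38.6% of 32851 promoters. They stood in 15 of 17 members called higher and in 7 of 7 called lower. The median GC content of member promoters was 60.4%, against 52.4% over all promoters, and its part in these counts was not tested. The promoters of a lactate dehydrogenase that rose, a glucose transporter that rose and lost its call in some fits, a kinase that fell and of Hif1a itself are shown, 5′ to 3′ on the gene's strand, with the core on either strand in capitals. Where CACGTG is written, both strands hold a core. For Ldha and Pdk1, which each have 2 listed starts, the first is shown. The second holds 1 match in Ldha and 0 in Pdk1. The Ldha stretch is chr7:46845554-46845803 (plus strand), that of Slc2a1 chr4:119108495-119108744 (plus strand), that of Pdk1 chr2:71872974-71873223 (plus strand) and that of Hif1a chr12:73907617-73907866 (plus strand).
Ldha: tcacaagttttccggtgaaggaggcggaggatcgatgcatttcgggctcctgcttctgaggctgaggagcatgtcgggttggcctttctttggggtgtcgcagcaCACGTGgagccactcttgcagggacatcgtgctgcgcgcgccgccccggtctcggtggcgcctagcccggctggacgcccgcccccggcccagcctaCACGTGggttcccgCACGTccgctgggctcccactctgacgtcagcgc
Slc2a1: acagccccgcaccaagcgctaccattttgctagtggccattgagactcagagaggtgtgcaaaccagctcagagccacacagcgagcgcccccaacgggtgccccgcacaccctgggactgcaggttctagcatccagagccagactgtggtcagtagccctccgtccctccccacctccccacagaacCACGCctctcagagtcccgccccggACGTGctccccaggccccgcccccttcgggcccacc
Pdk1: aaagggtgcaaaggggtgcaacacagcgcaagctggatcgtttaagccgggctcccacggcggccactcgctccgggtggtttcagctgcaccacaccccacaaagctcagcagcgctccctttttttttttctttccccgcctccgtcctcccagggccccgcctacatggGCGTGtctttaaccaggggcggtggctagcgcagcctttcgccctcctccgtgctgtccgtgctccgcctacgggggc
Hif1a: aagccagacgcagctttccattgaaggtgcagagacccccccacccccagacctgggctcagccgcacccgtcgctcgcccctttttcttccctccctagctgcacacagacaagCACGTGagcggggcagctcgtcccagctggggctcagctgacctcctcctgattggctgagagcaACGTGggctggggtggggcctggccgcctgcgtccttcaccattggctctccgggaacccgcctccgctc
The Ldha stretch held 5 matches, that of Hif1a 3, that of Slc2a1 2 and that of Pdk1 1. A match is a description of letters, and it was present before genes that moved in either direction.

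Glucose enters microglia through facilitative transporters and is trapped by hexokinase. Slc2a1 (GLUT1, chr4:119108745-119137330), the widely expressed glucose transporter, measured 74.5, 118, 88.8, 88.3 and 74.0 CPM in LPS mice, against 50.3, 72.04, 66.6, 73.1 and 66.7 CPM in saline mice. Every LPS mouse was above every saline mouse, by a narrow margin, and the gene was called higher (log2 fold change 0.43, SE 0.16, edgeR adjusted p = 0.0358). The call was close to the threshold: the adjusted p was 0.0997 without LPS replicate 2, 0.0622 without LPS replicate 3, 0.102 without saline replicate 1, 0.0660 without saline replicate 3 and 0.0594 without saline replicate 5. The adjusted p was also 0.114 with library size as the only scaling and 0.0638 with no filter on low counts.

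Hexokinases differed among themselves. Hk3, a hexokinase of myeloid cells (chr13:55005985-55021475), measured 98.9, 65.2, 113, 55.6 and 58.2 CPM in LPS mice, against 128, 133, 129.5, 163 and 145 CPM in saline mice. All 5 LPS mice were below all 5 saline mice, and Hk3 fell (log2 fold change -0.84, SE 0.22, edgeR adjusted p = 0.00320). Hk2, the inducible hexokinase, measured 386, 445, 301, 217 and 279 CPM in LPS mice, against 289, 332, 317, 255 and 392 CPM in saline mice. The groups overlapped widely, the log2 fold change was 0.04 (edgeR adjusted p = 0.875), and its 95% interval of -0.44 to 0.52 leaves room for moderate changes either way. Hk1, the housekeeping form, averaged 7.85 ± 1.89 CPM in LPS mice and 12.1 ± 4.06 CPM in saline mice (SD, n = 5 each) and was not called (log2 fold change -0.63, edgeR adjusted p = 0.0574). The call depended on the fit: the adjusted p was 0.0201 with a term for the range of mouse numbers, 0.0348 with library size as the only scaling, 0.0449 without LPS replicate 4, 0.0415 without LPS replicate 5, 0.0353 without saline replicate 1 and 0.0323 without saline replicate 3.

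Other carriers and glucose kinases, outside the 47, moved further. Of 8 listed, 5 were tested, 3 were higher and 1 lower (80.0% called, against 45.0% of all genes tested). Slc2a6 (GLUT6, a transporter of intracellular membranes) measured 102, 91.9, 148, 70.1 and 126 CPM in LPS mice, against 2.83, 3.39, 2.75, 3.06 and 2.92 CPM in saline mice. No LPS mouse came near the saline range, and the fold was 35.9 (log2 fold change 5.16, SE 0.19, edgeR adjusted p = 2.04e-09). Slc2a5, a fructose transporter abundant in microglia, measured 700.2, 402, 378, 99.1 and 186 CPM in LPS mice, against 2009, 2002, 1994, 1749 and 2105 CPM in saline mice. It fell in LPS mice with no overlap (log2 fold change -2.48, SE 0.49, edgeR adjusted p = 1.48e-04), and the LPS mice themselves spread widely. Slc2a3, the neuronal glucose transporter GLUT3, averaged 18.6 ± 14.6 CPM in LPS mice and 5.74 ± 1.45 CPM in saline mice (SD, n = 5 each) and rose although the groups overlapped (log2 fold change 1.70, SE 0.49, edgeR adjusted p = 0.00432), with LPS replicate 4 the highest at 43.5 CPM. Adpgk, an ADP-dependent glucokinase, rose as well (log2 fold change 1.30, SE 0.16, edgeR adjusted p = 5.08e-05).

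**Figure D3:**
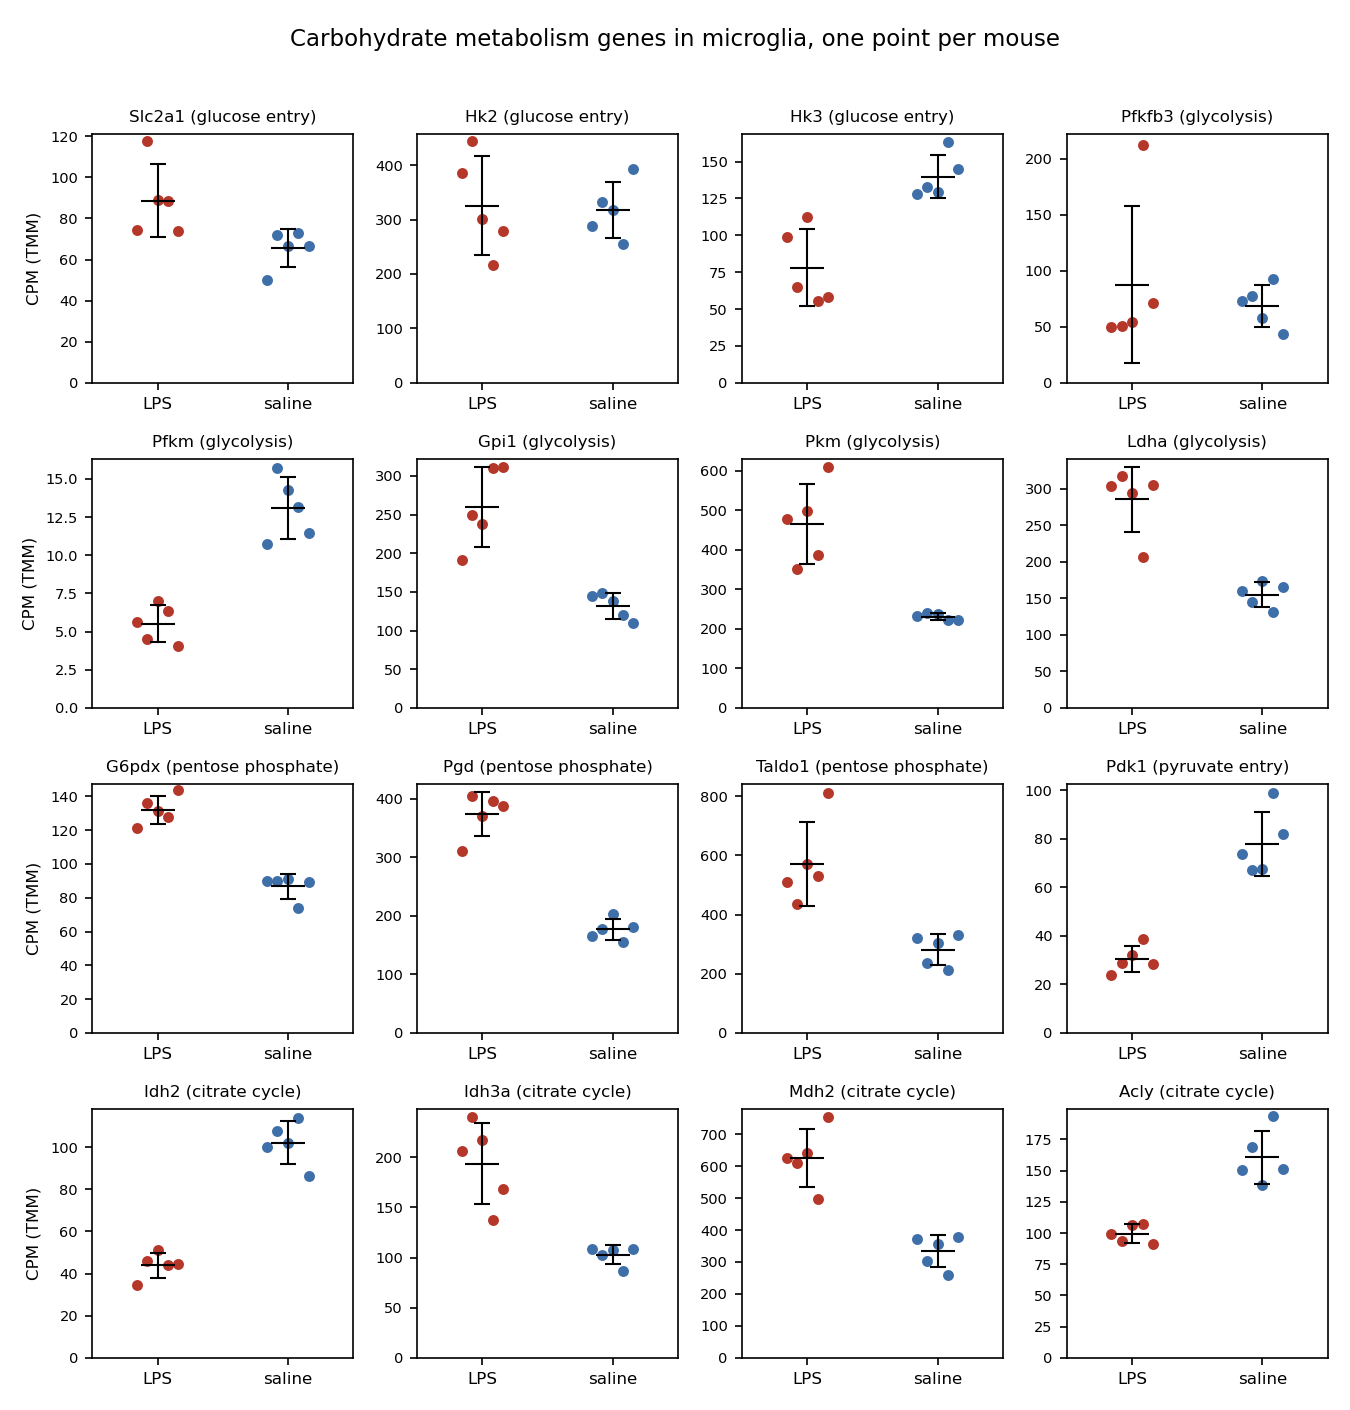
CPM of named members in each mouse, LPS left and saline right, on linear axes that start at 0. Points are mice, and bars are the mean ± SD of 5 mice. Pgd, Pkm and Ldha separate the groups upwards and Pdk1, Idh2 and Hk3 downwards, while Hk2 overlaps and Pfkfb3 has 1 LPS mouse at 212 CPM.

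Within glycolysis 6 of 16 tested genes were higher and 2 lower. The 8 called were a share little above the 45.0% of all genes tested. The 2 lower were Pfkm and the transcription factor gene Hif1a. Gpi1, which converts glucose 6-phosphate into fructose 6-phosphate (chr7:34201327-34230336), measured 191, 250.1, 238, 310.0 and 311 CPM in LPS mice, against 145, 148, 138, 119.8 and 109.7 CPM in saline mice. The groups did not overlap and Gpi1 rose (log2 fold change 0.98, SE 0.16, edgeR adjusted p = 2.25e-04). Pkm, pyruvate kinase of muscle and immune cells (chr9:59656576-59679372), measured 478, 353, 498, 386 and 609.7 CPM in LPS mice, against 233, 239, 238, 222 and 223 CPM in saline mice. Pkm was higher in every LPS mouse than in any saline mouse (log2 fold change 1.01, SE 0.14, edgeR adjusted p = 1.29e-04).

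Phosphofructokinase, the committed step, has 3 subunit genes. Pfkm, the muscle subunit (chr15:98092589-98132447), measured 5.61, 4.53, 6.99, 6.34 and 4.07 CPM in LPS mice, against 10.7, 15.7, 14.3, 13.2 and 11.5 CPM in saline mice. All LPS mice were below all saline mice, and Pfkm fell (log2 fold change -1.24, SE 0.17, edgeR adjusted p = 2.87e-04). Pfkl, the liver subunit, was not called at 73.0 ± 9.26 CPM in LPS mice and 80.2 ± 14.4 CPM in saline mice (SD, n = 5 each; log2 fold change -0.14, edgeR adjusted p = 0.482). Pfkp, the platelet subunit, was rare, at 2.73 ± 0.912 CPM in LPS mice and 1.55 ± 0.992 CPM in saline mice (SD, n = 5 each), and was not called (log2 fold change 0.81, SE 0.45, edgeR adjusted p = 0.149). The adjusted p of Pfkp was 0.0433 without saline replicate 1 and 0.0183 once the length trend was removed (log2 fold change 1.40).

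The bifunctional enzymes that set the level of fructose 2,6-bisphosphate, the allosteric activator of phosphofructokinase, are Pfkfb3 and Pfkfb4. Pfkfb3, the inducible form, measured 49.6, 51.0, 54.6, 212 and 70.8 CPM in LPS mice, against 72.8, 77.1, 57.9, 92.7 and 43.4 CPM in saline mice. LPS replicate 4 stood alone, and the other LPS mice lay inside the saline range. The ratio of means was 1.27 with that mouse and 0.822 without it, and Pfkfb3 was not called (log2 fold change 0.35, SE 0.44, edgeR adjusted p = 0.449). Pfkfb4 measured 200.4, 167, 206, 132 and 154 CPM in LPS mice, against 108, 120.0, 96.8, 108 and 102 CPM in saline mice and rose with no overlap (log2 fold change 0.68, SE 0.13, edgeR adjusted p = 0.00161).

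Aldolase, triose phosphate isomerase and phosphoglycerate kinase act in the middle of the chain and were not called. Aldoa, aldolase, averaged 702 ± 174 CPM in LPS mice and 550.3 ± 86.2 CPM in saline mice (SD, n = 5 each; log2 fold change 0.35, SE 0.18, edgeR adjusted p = 0.111), and its adjusted p was 0.0415 without LPS replicate 4. Tpi1, triose phosphate isomerase, had a log2 fold change of 0.15 (edgeR adjusted p = 0.523), and Pgk1, phosphoglycerate kinase, one of 0.46 (edgeR adjusted p = 0.105). Pgk1 was listed at only 7.99 ± 2.08 CPM in LPS mice and 5.82 ± 0.773 CPM in saline mice (SD, n = 5 each). Eno1, enolase, measured 229, 244, 243, 222 and 369 CPM in LPS mice, against 194, 183, 204, 151 and 204 CPM in saline mice. Its groups did not overlap and it was called higher (log2 fold change 0.48, SE 0.16, edgeR adjusted p = 0.0240), with LPS replicate 5 far above the other LPS mice. The adjusted p was 0.0624 without LPS replicate 5, 0.0529 without saline replicate 2, 0.0662 without saline replicate 4, 0.0525 with the term for mouse numbers and 0.236 with the length trend removed.

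Several of these genes have many processed pseudogenes, and counting may split or drop their reads. Of the 50-base windows of the longest protein-coding Gapdh transcript, 82.5% also occurred in other GENCODE genes. In the same way the share was 72.2% for Eno1, 68.0% for Pgk1, 41.5% for Pgam1 and 34.4% for Pkm, while 28 members shared no window. Gapdh, commonly one of the most abundant transcripts of a cell, was listed at 5.86, 6.99, 7.22, 7.10 and 9.08 CPM in LPS mice, against 3.10, 2.80, 3.88, 4.30 and 3.63 CPM in saline mice. It was called higher with no overlap (log2 fold change 1.03, SE 0.15, edgeR adjusted p = 0.00212) and rested on few reads, with 70 to 116 counts in LPS mice and 33 to 69 counts in saline mice. Pgam1, phosphoglycerate mutase, had 4, 0, 0, 1 and 1 counts in LPS mice and 0, 4, 3, 7 and 6 counts in saline mice, and was not tested. The part of shared sequence in these counts was not tested. Among the 33 members with under 5% of windows shared, 10 were higher and 7 lower (51.5% called), with a median log2 fold change of 0.17. Over all genes tested 45.0% were called (22.4% higher, 22.5% lower), with a median of 0.00. With the length trend removed, 7 of the 33 were higher and 6 lower, with a median of 0.06. Over all genes 20.8% were then higher and 17.8% lower, with a median of 0.05.

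At the exit towards lactate, the lactate dehydrogenase genes parted. Ldha, whose subunit favours lactate formation (chr7:46842274-46855627), measured 304, 317, 294, 207 and 305 CPM in LPS mice, against 159, 144, 174, 131 and 165 CPM in saline mice. It rose with no overlap (log2 fold change 0.88, SE 0.13, edgeR adjusted p = 2.60e-04), and LPS replicate 4 was the lowest LPS mouse. Ldhb, whose subunit favours pyruvate formation, averaged 597 ± 167 CPM in LPS mice and 657 ± 86.7 CPM in saline mice (SD, n = 5 each) and was not called (log2 fold change -0.14, SE 0.21, edgeR adjusted p = 0.560). Once the length trend was taken out, Ldhb was lower (log2 fold change -0.63, adjusted p = 0.00180), and Ldha was still higher (log2 fold change 0.62, adjusted p = 0.00140). The lactate exporter Slc16a3 (MCT4) was not called (log2 fold change 0.36, SE 0.21, edgeR adjusted p = 0.262).

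Hif1a, the oxygen-regulated subunit of HIF-1 (chr12:73901324-73947554), measured 47.6, 45.6, 51.9, 58.8 and 47.9 CPM in LPS mice, against 72.8, 67.7, 72.8, 89.2 and 60.1 CPM in saline mice. All LPS mice were below all saline mice and Hif1a fell at the level of RNA (log2 fold change -0.53, SE 0.11, edgeR adjusted p = 0.00610). The call was lost once the length trend was removed (log2 fold change -0.18, adjusted p = 0.166). RNA says nothing of the HIF-1α protein, which is controlled by its degradation. Of 5 tested genes that regulate HIF, 1 was higher and 2 were lower (60.0% called, against 45.0% of all genes tested). None of these calls remained with the length trend removed. Vhl, which marks HIF-1α for degradation, was not called (log2 fold change -0.34, SE 0.15, edgeR adjusted p = 0.0854), but was lower once the length trend was removed (log2 fold change -0.37, adjusted p = 0.0464). Of 9 tested HIF targets outside metabolism, 2 were higher and 2 lower (44.4% called, close to the 45.0% of all genes tested). Those that rose, named after their values were seen, were Ddit4, an inhibitor of mTORC1, and P4ha2, a collagen prolyl hydroxylase. Ddit4 measured 4.52, 0.538, 3.73, 25.7 and 7.36 CPM in LPS mice, against 0.264, 1.19, 0.970, 0.811 and 0.712 CPM in saline mice. The groups overlapped, LPS replicate 4 was the highest (log2 fold change 3.42, SE 0.89, edgeR adjusted p = 0.00217), and the ratio of means was 10.6 with that mouse and 5.12 without it. P4ha2 rose with no overlap (log2 fold change 1.31, SE 0.34, edgeR adjusted p = 0.00969). Kdm3a, a histone demethylase, fell (log2 fold change -1.22, SE 0.24, edgeR adjusted p = 4.33e-04), as did P4ha1, also a collagen prolyl hydroxylase (log2 fold change -0.68, SE 0.26, edgeR adjusted p = 0.0210); the P4ha1 adjusted p was 0.0616 without LPS replicate 5 and 0.178 with the length trend removed.

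Of 12 tested other genes of glycolysis, 2 were higher and 4 lower. These 6 calls were a share little above the 45.0% of all genes tested. Tigar, a phosphatase that lowers fructose 2,6-bisphosphate, measured 13.1, 19.9, 20.03, 19.8 and 23.9 CPM in LPS mice, against 6.26, 3.65, 7.11, 3.12 and 5.63 CPM in saline mice. All LPS mice lay above the saline range and Tigar rose (log2 fold change 1.91, SE 0.26, edgeR adjusted p = 3.67e-05). Slc16a7, a monocarboxylate transporter with high affinity for pyruvate, fell (log2 fold change -1.11, SE 0.14, edgeR adjusted p = 6.96e-05), and its adjusted p with the length trend removed was 0.0504. Bsg, the chaperone of monocarboxylate transporters, was called higher (log2 fold change 0.48, SE 0.15, edgeR adjusted p = 0.0206). The adjusted p of Bsg was 0.0586 without LPS replicate 3, 0.0545 without saline replicate 2 and 0.374 with the length trend removed.

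In the pentose phosphate pathway 4 of 7 genes were higher in LPS mice and none was lower (57.1% called, against 45.0% of all genes tested). All 4 were still higher with the length trend removed. Pgd, 6-phosphogluconate dehydrogenase (chr4:149149991-149166705), yields NADPH and measured 311, 405, 371, 397 and 387 CPM in LPS mice, against 166, 178, 203, 156 and 181 CPM in saline mice. The lowest LPS mouse was above the highest saline mouse and Pgd rose (log2 fold change 1.08, SE 0.09, edgeR adjusted p = 1.83e-05). G6pdx, glucose 6-phosphate dehydrogenase and the gate of the pathway (chrX:74409483-74428880), measured 121, 136, 131, 128 and 144 CPM in LPS mice, against 89.7, 89.8, 91.4, 73.7 and 89.3 CPM in saline mice. It rose with no overlap (log2 fold change 0.61, SE 0.07, edgeR adjusted p = 9.44e-04).

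The non-oxidative branch, which interconverts sugar phosphates, followed in part. Taldo1, transaldolase (chr7:141392160-141402976), measured 511, 435, 570.0, 529 and 811 CPM in LPS mice, against 322, 235, 304, 214 and 330.1 CPM in saline mice. It rose with no overlap (log2 fold change 1.02, SE 0.20, edgeR adjusted p = 5.21e-04). Tkt, transketolase, averaged 290.0 ± 37.8 CPM in LPS mice and 191 ± 29.1 CPM in saline mice (SD, n = 5 each) and rose with no overlap (log2 fold change 0.60, SE 0.13, edgeR adjusted p = 0.00384). The isomerase genes Rpia and Rpe were not called, with log2 fold changes of 0.07 (95% interval -0.77 to 0.91) and -0.11 (95% interval -0.46 to 0.23). Pgls, the lactonase between G6pdx and Pgd, was not called (log2 fold change 0.53, SE 0.17, edgeR adjusted p = 0.0678), and its adjusted p was 0.0452 without LPS replicate 3 and 0.0358 without saline replicate 5. Pgls was also called higher with DESeq2 and in the fits of RPKM. With the length trend removed, its log2 fold change was 0.04 (adjusted p = 0.905). H6pd, the counterpart of G6pdx in the endoplasmic reticulum, was not called (log2 fold change 0.05, SE 0.17, edgeR adjusted p = 0.829), but was higher once the length trend was removed (log2 fold change 0.49, adjusted p = 0.00865).

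Pyruvate enters the citrate cycle through the pyruvate dehydrogenase complex, which Pdk kinases switch off and Pdp phosphatases switch on. Pdk1 (chr2:71873215-71903858), itself a textbook HIF-1 target, measured 23.9, 28.9, 32.1, 38.5 and 28.2 CPM in LPS mice, against 73.8, 67.0, 67.6, 98.6 and 81.9 CPM in saline mice. All LPS mice were below all saline mice and Pdk1 had the largest fall among the 46 tested members (log2 fold change -1.36, SE 0.15, edgeR adjusted p = 1.53e-05). The other Pdk genes, outside the 47 and named after their values were seen, did not move as one. Pdk3 rose with no overlap, at 8.71 ± 1.46 CPM in LPS mice and 4.37 ± 1.04 CPM in saline mice (SD, n = 5 each; log2 fold change 0.99, SE 0.20, edgeR adjusted p = 0.00342). Pdk2 was called lower (log2 fold change -0.53, SE 0.21, edgeR adjusted p = 0.0492), but its adjusted p was above the threshold without LPS replicate 1 (0.106), 2 (0.0972) or 3 (0.101) and without saline replicate 1 (0.0671), 2 (0.143) or 5 (0.0966). Pdk4 did not pass the filter on low counts. Pdp2, a phosphatase with the opposite action, measured 44.1, 61.1, 55.6, 41.6 and 37.0 CPM in LPS mice, against 109.7, 111, 99.6, 119 and 75.8 CPM in saline mice and also fell (log2 fold change -1.10, SE 0.18, edgeR adjusted p = 1.38e-04). Most subunits of the complex itself were not called: log2 fold changes were 0.02 for Pdha1 (95% interval -0.30 to 0.35), 0.17 for Dlat (95% interval -0.09 to 0.44) and 0.04 for Dld (95% interval -0.20 to 0.29). Pdhb was called higher at 106 ± 8.79 CPM in LPS mice and 80.0 ± 6.73 CPM in saline mice (SD, n = 5 each; log2 fold change 0.40, SE 0.08, edgeR adjusted p = 0.0138), but 30.3% of its windows occur in other genes, and its log2 fold change was -0.0026 once the length trend was taken out. Of 8 tested other genes of pyruvate entry, 2 were higher and 2 lower, a share called little above the 45.0% of all genes tested.

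In the citrate cycle 6 of 14 genes were higher and 3 lower (64.3% called, against 45.0% of all genes tested), and members moved in both directions. Idh2, the mitochondrial NADP-dependent isocitrate dehydrogenase (chr7:80094845-80118608), measured 34.8, 45.9, 51.1, 43.9 and 44.5 CPM in LPS mice, against 100.1, 108, 102, 114 and 86.5 CPM in saline mice. It fell with no overlap (log2 fold change -1.21, SE 0.11, edgeR adjusted p = 9.96e-06). Idh3a, the catalytic subunit of the NAD-dependent enzyme (chr9:54586511-54604662), measured 206, 239.8, 217, 138 and 168 CPM in LPS mice, against 109, 102, 107, 86.2 and 108 CPM in saline mice. It rose with no overlap (log2 fold change 0.92, SE 0.16, edgeR adjusted p = 3.58e-04). The partner subunit gene Idh3b was called higher (log2 fold change 0.53, SE 0.09, edgeR adjusted p = 0.00349) and lost its call with the length trend removed (adjusted p = 0.273), and Idh3g was not called (log2 fold change 0.22, 95% interval -0.13 to 0.57).

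Further round the cycle, Ogdh, of the 2-oxoglutarate dehydrogenase complex, averaged 104 ± 16.6 CPM in LPS mice and 177 ± 24.3 CPM in saline mice (SD, n = 5 each) and fell with no overlap (log2 fold change -0.76, SE 0.14, edgeR adjusted p = 9.12e-04). Suclg1, of succinyl-CoA ligase, was called higher although the groups overlapped (log2 fold change 0.54, SE 0.16, edgeR adjusted p = 0.0120), as was Fh1, fumarase, without overlap (log2 fold change 0.44, SE 0.08, edgeR adjusted p = 0.00891). Both lost their calls with the length trend removed (adjusted p = 0.490 for Suclg1 and 0.549 for Fh1). Sucla2 and Suclg2, the other ligase genes, had log2 fold changes of 0.26 (95% interval -0.05 to 0.57) and 0.20 (95% interval -0.17 to 0.58) and were not called; Suclg2 was higher once the length trend was removed (log2 fold change 0.42, adjusted p = 0.0352). Cs, citrate synthase at the head of the cycle, was not called (log2 fold change -0.12, 95% interval -0.47 to 0.23).

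Mdh2, the mitochondrial malate dehydrogenase (chr5:135778649-135790386), measured 626, 610.2, 640.2, 496 and 752 CPM in LPS mice, against 370.4, 302, 356, 260.4 and 377 CPM in saline mice. Here too the groups separated and Mdh2 rose (log2 fold change 0.91, SE 0.14, edgeR adjusted p = 2.83e-04). Mdh1, its cytosolic counterpart, overlapped between groups and was called higher only narrowly (log2 fold change 0.49, SE 0.19, edgeR adjusted p = 0.0364). Leaving out any one of 8 mice ended that call, with adjusted p between 0.0545 without saline replicate 5 and 0.0950 without LPS replicate 5, and only LPS replicates 2 and 4 could be left out with the call in place. Its adjusted p was 0.0577 with the term for mouse numbers and 0.268 with the length trend removed. Acly, which cleaves exported citrate into acetyl-CoA for lipid synthesis, measured 99.3, 93.5, 106, 108 and 91.1 CPM in LPS mice, against 150.3, 169, 139, 194 and 151 CPM in saline mice. It fell with no overlap (log2 fold change -0.69, SE 0.10, edgeR adjusted p = 6.90e-04).

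Succinate dehydrogenase, outside the 47, sits between Suclg1 and Fh1. Its catalytic subunit gene Sdha was called lower (log2 fold change -0.41, SE 0.11, edgeR adjusted p = 0.0232), a call lost without LPS replicate 5 (adjusted p = 0.0651), without saline replicate 2 (0.0715) and without saline replicate 3 (0.0566). The other subunit genes, named after their values were seen, were higher, with log2 fold changes of 0.96 for Sdhb, 0.73 for Sdhc and 0.67 for Sdhd (edgeR adjusted p = 0.00242, 0.00263 and 0.00341). Once the length trend was taken out, these were 0.40, 0.21 and 0.18 (adjusted p = 0.0243, 0.132 and 0.169), and that of Sdha was -0.40 (adjusted p = 0.0146). Of 14 tested other genes of the citrate cycle, 7 were higher and 2 lower (64.3% called, against 45.0% of all genes tested). Over all 47 tested genes outside the module, of 61 listed, 16 were higher and 11 lower (57.45% called), with a median log2 fold change of 0.11. With the length trend removed, 10 of the higher and 6 of the lower calls remained.

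Where several genes serve 1 step, the make-up of the step was read from RPKM, counts per length as the authors scaled them, as each gene's share of the summed RPKM in each mouse. Shares are descriptions with no test, and they describe RNA and not protein. Idh1, the cytosolic NADP-dependent isocitrate dehydrogenase, made up 72.5, 61.8, 67.6, 69.8 and 76.3% in LPS mice, against 50.7, 48.0, 46.4, 40.6 and 51.8% in saline mice of the sum of Idh1 and Idh2. Every LPS mouse was above every saline mouse. Idh1 itself was not called (log2 fold change 0.17, 95% interval -0.22 to 0.55), so the shift came with the fall of Idh2, and the relative lengths of the pair were close, at 2.43 kb for Idh1 and 2.33 kb for Idh2.

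Ldha made up 22.2, 33.6, 23.8, 24.9 and 20.9% in LPS mice, against 12.7, 14.9, 14.4, 13.5 and 13.3% in saline mice of the lactate dehydrogenase sum, with no overlap. Hk2 made up 70.7% ± 6.74 in LPS mice and 57.1% ± 5.16 in saline mice of the hexokinase sum (SD, n = 5 each), with no overlap, and Hk3 27.4% ± 6.62 in LPS mice and 40.6% ± 5.09 in saline mice (SD, n = 5 each), with overlap. Among phosphofructokinase genes Pfkl held 91.3% ± 1.37 in LPS mice and 84.2% ± 1.91 in saline mice and Pfkm 7.52% ± 1.22 in LPS mice and 15.2% ± 1.64 in saline mice (SD, n = 5 each), both without overlap. Mdh2 held 64.6% ± 3.85 in LPS mice and 57.0% ± 2.17 in saline mice of the malate dehydrogenase sum (SD, n = 5 each), without overlap.

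The largest shift was among the sugar transporters. Slc2a5 held 51.5% ± 17.3 in LPS mice and 95.9% ± 0.696 in saline mice of the sum of Slc2a1, Slc2a3, Slc2a5 and Slc2a6 (SD, n = 5 each). Slc2a6 held 27.1% ± 9.39 in LPS mice and 0.211% ± 0.0239 in saline mice, and Slc2a1 18.6% ± 7.996 in LPS mice and 3.71% ± 0.651 in saline mice (SD, n = 5 each). The sum itself was lower in LPS mice, at 204 ± 77.5 RPKM in LPS mice and 658 ± 50.8 RPKM in saline mice (SD, n = 5 each), with no overlap. It pools a fructose transporter with glucose transporters. Its fall came with Slc2a5, at 116 ± 76.5 RPKM in LPS mice and 631 ± 51.4 RPKM in saline mice (SD, n = 5 each). The means of Slc2a1, Slc2a3 and Slc2a6 were higher in LPS mice, at 33.4, 3.97 and 50.8 RPKM, against 24.3, 1.20 and 1.38 RPKM in saline mice.

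**Figure D4:**
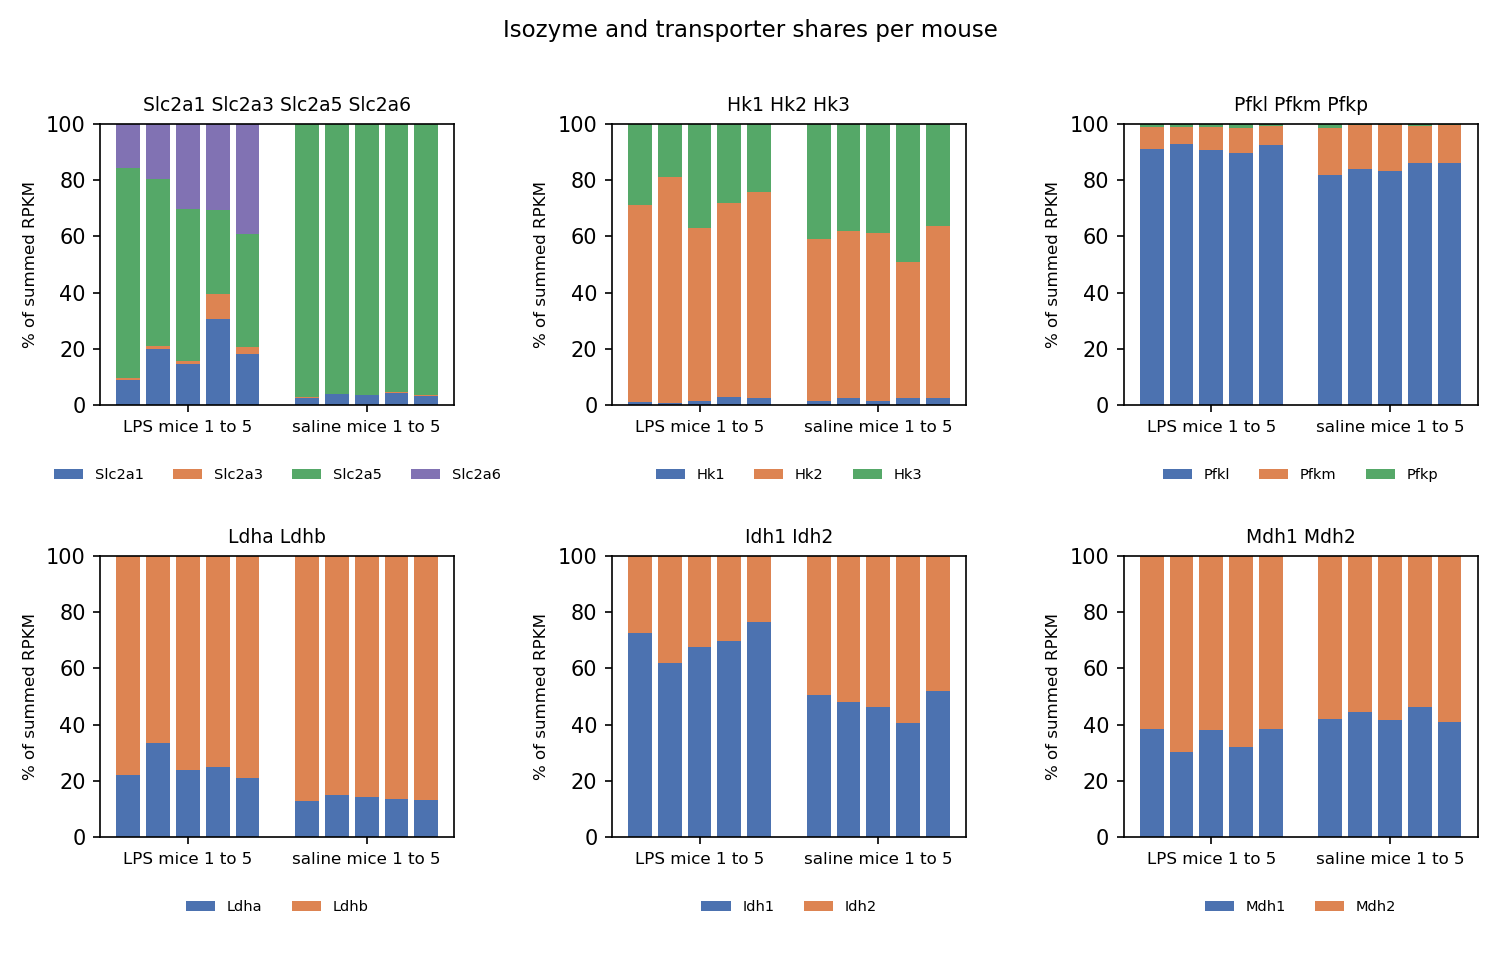
Share of each gene in the summed RPKM of its step, in percent, stacked for each of 5 LPS mice (left) and 5 saline mice (right). Slc2a5 falls to a mean of 51.5% in LPS mice, against 95.9% in saline mice, and Idh1 has the larger share in all 5 LPS mice.

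On the RPKM scale the order of the members was led by the same few genes in both groups. Mdh2 averaged 494 ± 75.8 RPKM in LPS mice and 258 ± 41.3 RPKM in saline mice, Ldhb 463 ± 132 RPKM in LPS mice and 499 ± 69.0 RPKM in saline mice and Taldo1 453 ± 114 RPKM in LPS mice and 218 ± 42.9 RPKM in saline mice (SD, n = 5 each). Mdh1 followed with 276 ± 77.3 RPKM in LPS mice and 193 ± 15.6 RPKM in saline mice, Aldoa with 219 ± 55.4 RPKM in LPS mice and 168 ± 27.8 RPKM in saline mice and Idh3g with 205 ± 36.5 RPKM in LPS mice and 172 ± 27.5 RPKM in saline mice (SD, n = 5 each). In LPS mice Mdh2, Ldhb and Taldo1 lay within 1 SD of each other. The lowest member with an RPKM value was Pfkp, at 0.248 ± 0.0795 RPKM in LPS mice and 0.138 ± 0.0844 RPKM in saline mice (SD, n = 5 each). Pgam1 had no RPKM value and is left out of this order. Ldhb shared 27.0% of its windows with other genes, and the effect of shared windows on this order was not tested.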

How the data were processed

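RNA from cortical cells with high GFP was sequenced from 5 LPS and 5 saline mice. Per the labels' protocols, 5 ng of RNA were amplified and 6 ng of product went into each library; no molecular identifiers are mentioned. The authors deposited raw counts per gene, 40789 genes of which 13224 had no count, and RPKM tables of 13199 and 10789 genes. Per the submitters' processing notes, featureCounts and the builds GRCm38 and mm10 were used. For the aligner, annotation, read length and strand setting no source used here has an entry (the RPKM tables carry the term CRAC, unexplained there), so genes with near copies, overlaps or antisense partners are uncertain. From the counts 1 line without a gene was left out, and 15 names turned into dates were restored from Entrez IDs; of the IDs, 37659 were found in RefSeq GRCm38.p6.

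The count test was that of edgeR 4.0.16 under R 4.3.3 (TMM, filterByExpr, quasi-likelihood F test, Benjamini-Hochberg over 13793 genes, threshold 0.05), with no covariate. Standard errors and 95% intervals come from log2 CPM with a prior count of 2. The length trend was removed with a lowess (span 0.3) of each library over log length. Alternatives were DESeq2 1.42.0, limma 3.58.1 with voom or on log2(RPKM + 1) and log2(RPKM + 0.1), other scalings and filters, a covariate for the range of the mouse number, and each mouse left out. The edgeR and length steps were also run on simulated counts with known changes and the same length slope in every LPS library. Those counts are simpler than these data, so that run does not show how well the trend was removed here. Shared windows of 50 bases were counted in the longest protein-coding transcript of each member, against GENCODE M21 transcripts of other genes. Tigar was matched by Entrez ID.

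Members and lists were chosen with earlier results of these data known. Beyond the members, genes were named where called at 2-fold or more with a mean of at least 5 CPM, or where highest in their step, and a few others were named after their values were seen. Each library came from its own mouse, and library pairs of a group differed by more than sampling noise.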

Additional observations from a re-analysis of the deposited data

Results flagged for a closer look

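A mouse far from the other 4 of its group, by the gap to its nearest neighbour over the range of the group, was looked for in 132 groups of 5 mice, and 12 were found. Chance alone gives about 5% of groups. LPS replicate 4 was such a mouse 5 times: for Pfkfb3 (212 CPM against 49.6 to 70.8 CPM in the other LPS mice), Ldha (207 CPM against 294 to 317 CPM), H6pd (43.9 CPM against 31.8 to 34.8 CPM), Kdm3a (48.4 CPM against 22.9 to 27.4 CPM) and Ddit4 (25.7 CPM against 0.538 to 7.36 CPM). LPS replicate 5 was the lowest LPS mouse for Pfkp (1.17 CPM against 2.87 to 3.55 CPM) and the highest for Eno1 (369 CPM against 222 to 244 CPM).

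Among saline mice, replicate 1 was low for Slc2a1 (50.3 CPM against 66.6 to 73.1 CPM in the other saline mice), replicate 4 was low for G6pdx (73.7 CPM against 89.3 to 91.4 CPM) and for Idh3a (86.2 CPM against 102 to 109 CPM), replicate 2 was low for Vhl (64.9 CPM against 82.2 to 89.2 CPM) and replicate 5 was low for P4ha2 (0.783 CPM against 1.87 to 1.94 CPM). Ldha, G6pdx, Idh3a and Kdm3a had the same call without the mouse named for them.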

How the results depend on the processing

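The 46 tested genes (45 in some fits of RPKM) were fitted under 23 other settings, and the number of members called higher ranged from 14 to 19 and of those called lower from 7 to 8. Of 25 called members, 17 had the same call in every setting and 21 in every setting but the removal of the length trend. Eno1, Pdhb and Mdh1 lost their calls both there and in other settings, and Slc2a1 in other settings alone. Among called members 1 changed direction: Pdhb had a log2 fold change of -0.0026 with the length trend removed. Of members not called, 9 changed sign in at least 1 setting, such as Pfkfb3 (-0.28 without LPS replicate 4), and Tpi1 (-0.24) and Idh3g (-0.21) with the length trend removed. Removing the length trend uses lengths implied by the deposited RPKM values; the cause of the trend was not tested. Leaving out 1 mouse at a time gave 16 to 19 members higher and 7 to 8 lower. Library size alone as the scaling put the median of all genes at -0.08. No paired analysis was possible because no mouse number occurs in both groups and the replicate numbers only follow the order of deposition. A term for the range of mouse numbers was fitted in its place, gave 16 members higher and 8 lower, and changed the calls of Hk1, Eno1 and Mdh1. Values of Gapdh, Pgam1, Pfkp, Rpia, Slc16a3, Pgls, Pgk1, Pfkm and Hk1 rest on few counts and are less precise.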
